A study of Mus musculus with 23 samples.

Results

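The difference between the foot-shock responses of 2 mouse genotypes was examined in brain RNA: the log2 difference of HT shock and HT control minus the log2 difference of WT shock and WT control, here called the interaction. It was taken gene by gene over all 23 labelled libraries of the series, 6 HT shock, 6 HT control, 5 WT shock and 6 WT control. HT mice, labelled heterotype and described as heterozygous in the series text, carry 1 Grin2b allele with the amino acid change C456Y. WT mice are wild type. All are male C57BL/6J animals. Foot-shock is an aversive electrical stimulus to the paws, and no source used here gives the interval between shock and tissue collection. The sample labels state postnatal day 17 whereas the series text speaks of adults, and the brain region is not named. Whether the libraries are separate animals is not stated in the labels, and p-values therefore reflect library-to-library spread that may be technical.

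The library names mark the allele as a knock-in, and no cell type or promoter restriction of it is stated. Grin2b encodes GluN2B, an NMDA receptor subunit. This glutamate receptor channel admits calcium when presynaptic release and postsynaptic depolarization coincide. Calcium entry through this receptor is a classical trigger of immediate early genes, transcription factors and effectors such as Fos, Arc and Nr4a1 that are transcribed within minutes of neuronal activity. Many of them have cAMP response elements near their start, bound by the transcription factor CREB. Foot-shock also releases glucocorticoids, which act on neurons, glia and vessels. A positive interaction means that the log2 response to shock was higher in HT than in WT, whatever the sign of either response, and a negative one that it was lower.

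Values were normalized counts with decimals for 18578 genes, of which 17118 had a mean of at least 10 and were tested. Depth is unknown, and library totals after the authors' normalization lay between 30980153 and 32569746. Markers of neurons, astrocytes and oligodendrocytes were abundant in every library, with Snap25 at 76484 or more, Slc1a2 at 43162 or more and Mbp at 87252 or more. One library stood apart from its label: HT control replicate 6 had a first principal component score of 31.3, beyond the HT shock libraries (11.4 to 25.95), while the other HT control libraries lay at 5.17 or below. Its deviations correlated with transcript GC content at 0.287 and with log transcript length at −0.200, across genes, against medians of 0.144 and −0.118 in HT shock. The HT shock group itself differed from the others in both medians. For GC content they were −0.0123 in HT control, −0.0423 in WT shock and −0.103 in WT control. For length they were 0.0297, 0.0548 and 0.0746 in the same order. The part of this in the interaction of single genes was not tested. Because HT control replicate 6 stood apart, medians of gene lists are also given without it where they move by over 1.5 times.

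No gene passed an adjusted p of 0.05 for the interaction (limma with Benjamini-Hochberg adjustment over all genes, 0 of 17118, 0%), and the smallest adjusted p, 0.552, was shared by 70 genes. At an unadjusted p under 0.05 there were 1101 genes (6.43%), 601 positive (3.51%) and 500 negative (2.92%), against 856 at 5% of the genes tested. The median interaction was −0.000667 and its median size 0.0911, below the median standard error of 0.110. The 95% interval of a gene, not adjusted for the number of genes, extended by a median of 0.227 to either side on the log2 scale. Smaller differences between the responses were thus not detectable for most genes even without adjustment. The adjusted threshold requires larger differences than that. Without HT control replicate 6, 1 gene passed (0.00584%) and 2472 had an unadjusted p under 0.05 (14.4%), 1112 positive (6.5%) and 1360 negative (7.94%). With weights estimated per library, which gave that library a weight of 0.240, 2 genes passed.

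The responses behind the interaction were small in both genotypes, with median sizes of 0.081 in HT and 0.0533 in WT. Across the 17118 genes the HT and WT responses, which share no library, correlated at r = −0.00233 (Spearman's rho = 0.0849), given as a description since genes are not independent. Among the 1101 genes, the responses had opposite signs in 1035, 561 with a positive response in HT and a negative one in WT and 474 the other way round. A gene needs a large difference to enter this set, so opposite signs are favoured by how it was chosen, and among all genes 7676 had opposite signs. The HT response was the larger of both in 744 of the 1101 genes and in 10470 of all 17118. In no gene did every HT shock library lie on one side of every HT control library while the WT libraries separated the opposite way.

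**Figure D1:**
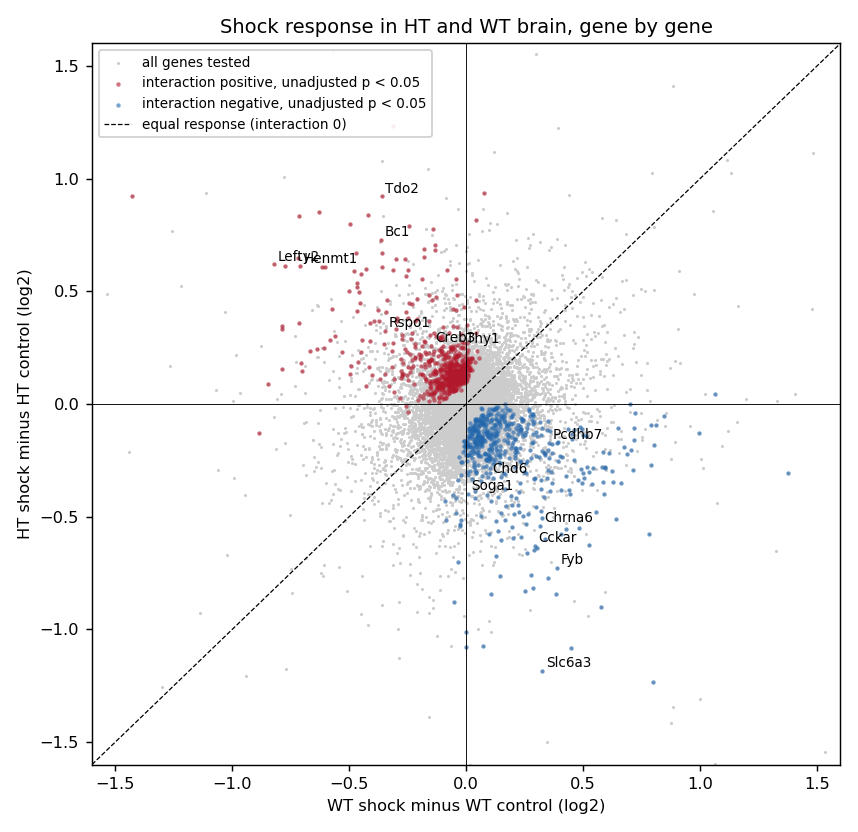
Log2 difference of HT shock and HT control (vertical) against log2 difference of WT shock and WT control (horizontal) for each of 17118 genes tested; 32 genes beyond 1.6 on either axis are not shown. Coloured points have an unadjusted p under 0.05 for the interaction, and lie off the dashed line of equal responses, mostly in the upper left and lower right quadrants.

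Grin2b itself (ENSMUSG00000030209, chromosome 6, 135713233 to 136173511, minus strand, protein coding, GRCm38) had 9874 to 11518 (median 10717) normalized counts in HT shock, 9556 to 14275 (median 12471) in HT control, 13111, 13831, 14218, 12272 and 10734 in WT shock and 12521 to 15225 (median 13514) in WT control. The HT shock libraries were all within or below the ranges of the other groups, and the HT control range contained that of HT shock. The response was −0.19 in HT and −0.09 in WT, and the interaction was −0.10 ± 0.11 (SE, limma adjusted p = 0.873, 95% interval −0.34 to 0.13). It was −0.17 without HT control replicate 6 (adjusted p = 0.415), and −0.06 at its nearest to 0 among the other fits tried. A change of 1 amino acid does not have to affect transcript abundance, and these levels are no test of the genotype labels.

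The genes of the smallest p with a negative interaction were led by Chd6, a chromatin remodelling helicase (ENSMUSG00000057133, chromosome 2, 160946978 to 161109075, minus strand), and included Soga1 (ENSMUSG00000055485, chromosome 2, 157015799 to 157079254, minus strand), the gene that passed when HT control replicate 6 was left out. In both, HT shock libraries were mostly lower than those of the other groups. Chd6 had 2688 to 3401 (median 2890) normalized counts in HT shock, 3288 to 4008 (median 3687) in HT control, 3808, 3636, 3496, 3810 and 3900 in WT shock and 2990 to 3817 (median 3662) in WT control. Only the highest HT shock library reached into the range of HT control, while both WT groups overlapped widely. Its response was −0.32 in HT and 0.09 in WT, and its interaction −0.42 ± 0.09 (SE, limma unadjusted p = 5.6e-05, adjusted p = 0.552). With library weights it was −0.47 (adjusted p = 0.0152), the smallest adjusted p of Chd6 under any alternative, and the largest was 0.829.

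Soga1 had 1034 to 1274 (median 1108) normalized counts in HT shock, 1096 to 1792 (median 1505) in HT control, 1638, 1665, 1628, 1543 and 1655 in WT shock and 1523 to 1764 (median 1617) in WT control. HT control replicate 6, at 1096, lay inside the HT shock range, and the other 5 HT control libraries lay above every HT shock library. WT shock lay within the range of WT control. The interaction of Soga1 was −0.41 ± 0.11 (SE, limma adjusted p = 0.552) with all libraries, −0.49 (adjusted p = 0.0193) without HT control replicate 6 and −0.51 (adjusted p = 0.0152) with library weights. Over all alternatives its adjusted p lay between 0.0152 and 0.859.

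Cpne1, a calcium-dependent membrane-binding protein, had 813 to 1039 (median 922) normalized counts in HT shock, 987 to 1232 (median 1162) in HT control, 1147, 1126, 1211, 1108 and 1209 in WT shock and 997 to 1137 (median 1081) in WT control. HT shock was mostly below HT control, and WT shock mostly above WT control, both with overlap. Its interaction was −0.38 ± 0.08 (SE, limma adjusted p = 0.552). Cpne1 overlaps Rbm12 on the same strand of chromosome 2, and how the authors' quantification split shared reads is not given, so its value is uncertain.

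Fat2, an atypical cadherin of cerebellar granule cells, had 3489 to 4447 (median 4147) normalized counts in HT shock, 4470 to 5323 (median 4955) in HT control, 4744, 5576, 4916, 4509 and 4994 in WT shock and 4155 to 5224 (median 4789) in WT control. Every HT shock library lay below every HT control library, and the WT groups overlapped. The interaction of Fat2 was −0.34 ± 0.09 (SE, limma adjusted p = 0.552). Pcdhb7, a protocadherin of the clustered beta genes on chromosome 18, had the other form. It had 154 to 225 (median 193) normalized counts in HT shock, 178 to 236 (median 225) in HT control, 246, 239, 236, 249.9 and 264 in WT shock and 185 to 207 (median 189.8) in WT control. Here WT shock lay wholly above WT control, and the HT groups overlapped, with a response of −0.17 in HT and 0.35 in WT and an interaction of −0.52 ± 0.12 (SE, limma adjusted p = 0.552). Neighbouring protocadherin genes are similar in sequence, which leaves the value of any single one uncertain.

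The remaining small-p genes with a negative interaction were Unc5b, a receptor for the guidance cue netrin (−0.32 ± 0.08, SE), Taf13, a subunit of the general transcription factor TFIID (−0.33 ± 0.09), and Obsl1, a cytoskeletal linker (−0.38 ± 0.10). In Unc5b the HT response was the larger (−0.21 in HT and 0.11 in WT). In Taf13 and Obsl1 the WT response was the larger, with −0.15 in HT and 0.18 in WT for Taf13 and −0.12 in HT and 0.26 in WT for Obsl1. All 3 had a limma adjusted p of 0.552, and the groups overlapped in both genotypes.

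Among genes with a positive interaction, Rspo1, a secreted enhancer of Wnt signalling (ENSMUSG00000028871, chromosome 4, 124986430 to 125009099, plus strand), had the smallest p. It had 191 to 267 (median 225) normalized counts in HT shock, 151 to 203 (median 188) in HT control, 190.3, 173, 225, 164 and 165 in WT shock and 195 to 266 (median 235) in WT control. HT shock was mostly above HT control and WT shock mostly below WT control, each with overlap, so that HT shock and WT control were at similar levels. The response was 0.33 in HT and −0.34 in WT, and the interaction 0.67 ± 0.15 (SE, limma unadjusted p = 9.6e-05, adjusted p = 0.552).

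Creb3, a transcription factor held in the endoplasmic reticulum membrane and released by cleavage (ENSMUSG00000028466, chromosome 4, 43562332 to 43567060, plus strand), had 1165 to 1272 (median 1196) normalized counts in HT shock, 914 to 1174 (median 992) in HT control, 896, 1073, 846, 886 and 893 in WT shock and 916 to 1187 (median 1026) in WT control. HT control replicate 6, at 1174, was the only HT control library inside the HT shock range, and WT shock replicate 2 stood above the other WT shock libraries. The interaction of Creb3 was 0.41 ± 0.09 (SE, limma adjusted p = 0.552), and 0.45 (adjusted p = 0.0615) without HT control replicate 6. Tln1 and Gba2 overlap it on the opposite strand.

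Pcnt, the centrosome scaffold pericentrin, had 1157 to 1485 (median 1389) normalized counts in HT shock, 1107 to 1323 (median 1206) in HT control, 1358, 1189, 1314, 1175 and 1383 in WT shock and 1383 to 1746 (median 1468) in WT control. No WT shock library reached above the lowest WT control library, and the HT groups overlapped in the opposite order, with an interaction of 0.40 ± 0.09 (SE, limma adjusted p = 0.552). Thy1, a glycoprotein of the neuronal surface, had 17192 to 19706 (median 18977) normalized counts in HT shock, 14246 to 17673 (median 15732) in HT control, 15960, 14702, 14671, 16338 and 16444 in WT shock and 14924 to 17145 (median 15660) in WT control. The HT shock libraries lay above the HT control libraries except replicate 6 of HT control, and the WT groups overlapped. Its interaction was 0.27 ± 0.07 (SE, limma adjusted p = 0.552, 0.0673 without HT control replicate 6), from responses of 0.25 in HT and −0.02 in WT.

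Gpatch1, a spliceosome-associated protein, was the small-p gene in which all HT shock libraries (903 to 1020, median 973) lay above all HT control libraries (794 to 889, median 864). Its WT shock libraries (846, 873, 889.9, 855 and 810.4) and WT control libraries (856 to 969, median 907) overlapped, and its interaction was 0.27 ± 0.06 (SE, limma adjusted p = 0.552). Ubap1, a subunit of the ESCRT-I sorting complex, had 0.28 ± 0.07, Ccdc32 0.24 ± 0.06 and Cstf3, a subunit of the cleavage factor that forms mRNA ends, 0.26 ± 0.07, all with a limma adjusted p of 0.552.

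**Figure D2:**
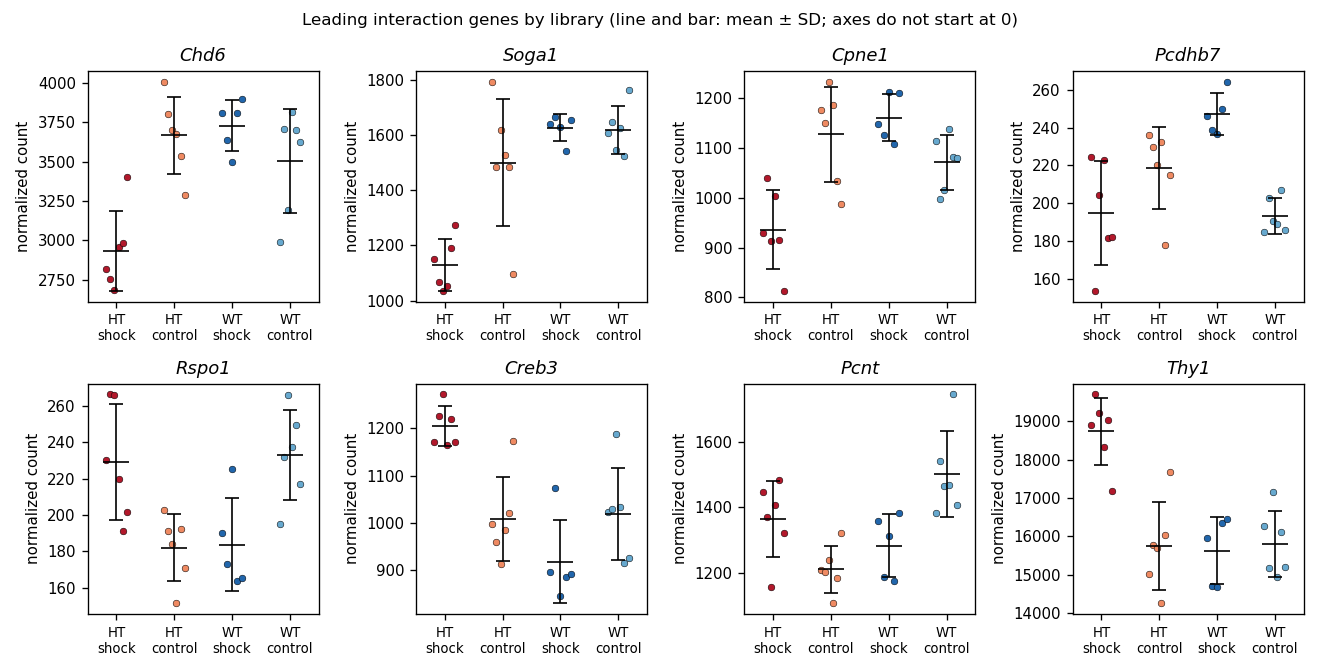
Normalized counts of 8 small-p genes in each library, in HT shock, HT control, WT shock and WT control from left to right; lines and bars are means and SD (n = 6, 6, 5 and 6), and axes do not start at 0. In the top row HT shock lies mostly below HT control, and for Pcdhb7 WT shock lies above WT control; in the bottom row the mean of HT shock is above that of HT control and the mean of WT shock is at or below that of WT control.

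Sizes at an unadjusted p under 0.01 were ranked among genes with a mean of at least 20. Predicted, clone, Rik and pseudogene names were left out. The largest interactions of this set belonged to genes with low or variable levels. Slc6a3, the dopamine transporter of midbrain neurons, had 62.7 to 279 (median 131) normalized counts in HT shock, 137 to 577 (median 292) in HT control, 463, 340, 410.3, 448 and 632 in WT shock and 200.1 to 471 (median 403) in WT control. HT shock lay mostly below HT control, WT shock above or within WT control, and the interaction was −1.51 ± 0.52 (SE, limma adjusted p = 0.711, 95% interval −2.59 to −0.43). Chrna6, a nicotinic receptor subunit of dopamine neurons, had 35.7 to 59.5 (median 47) normalized counts in HT shock, 48 to 109 (median 64.8) in HT control, 80, 67.2, 102, 88.9 and 104 in WT shock and 61.9 to 87.8 (median 68) in WT control. Its response was −0.54 in HT and 0.32 in WT, and its interaction −0.86 ± 0.24 (SE, limma adjusted p = 0.552).

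Fyb, an adaptor protein of immune cells, had an interaction of −1.12 ± 0.36 (SE), with 18.8 to 31.8 (median 22.2) normalized counts in HT shock, 19.9 to 67.6 (median 39.6) in HT control, 35.8, 73.1, 62.1, 39.9 and 54.6 in WT shock and 27.2 to 58.1 (median 37) in WT control. Cckar, a cholecystokinin receptor, had −0.92 ± 0.27, and all its HT shock libraries (14.4 to 23.2, median 20.7) lay below all HT control libraries (24.1 to 47.8, median 31.4). These are levels at which the added pseudocount shrinks a fold change, and the limma adjusted p was 0.658 for Fyb and 0.552 for Cckar.

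On the positive side of that set the sizes were led by Lefty2, an antagonist of Nodal signalling (1.44 ± 0.42, SE). It was followed by Henmt1, a methyltransferase of small RNAs in germ cells (1.32 ± 0.37). Tdo2, a tryptophan-degrading dioxygenase (1.28 ± 0.42), and Bc1, a short noncoding RNA of dendrites (1.09 ± 0.35), came next. Lefty2 had 23.2 to 54.5 (median 38) normalized counts in HT shock, 12.3 to 43 (median 23.1) in HT control, 10.6, 31.5, 12.3, 13.1 and 11.7 in WT shock and 16 to 39.8 (median 28.3) in WT control. Apart from WT shock replicate 2, its WT shock libraries lay below all WT control libraries, and HT shock overlapped HT control. Bc1 was abundant, with 4077 to 9045 (median 7520) normalized counts in HT shock, 3056 to 8009 (median 3785) in HT control, 3975, 2529, 4894, 4520 and 4774 in WT shock and 4100 to 7225 (median 4877) in WT control. Its HT control replicate 6, at 8009, lay within the HT shock range, and without it the interaction of Bc1 was 1.28 (limma adjusted p = 0.131, against 0.685 with all libraries). None of the 4 passed.

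The 31 immediate early genes measured had the highest median interaction of the 42 gene lists examined, 0.255 against −0.000667 over all genes tested, with 29 of 31 members positive and 2 negative. The promoters of 3 members with the full cAMP response element and of Jun, the member with the smallest p, are shown because this is the list's best known shared element. Bases 250 to 1 before the RefSeq start (GRCm38.p6) are given 5′ to 3′ on the gene's strand, for Btg2 (chr1:134079156-134079405, minus strand), Dusp1 (chr17:26508473-26508722, minus strand), Arl4d (chr11:101665291-101665540, plus strand) and Jun (chr4:95052223-95052472, minus strand), with the element TGACGTCA in capitals.

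Btg2: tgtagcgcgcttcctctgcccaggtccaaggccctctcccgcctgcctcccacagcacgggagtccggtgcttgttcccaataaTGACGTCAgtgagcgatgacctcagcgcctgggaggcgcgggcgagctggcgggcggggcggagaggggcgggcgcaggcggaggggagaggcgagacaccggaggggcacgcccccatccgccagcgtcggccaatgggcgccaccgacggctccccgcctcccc
Dusp1: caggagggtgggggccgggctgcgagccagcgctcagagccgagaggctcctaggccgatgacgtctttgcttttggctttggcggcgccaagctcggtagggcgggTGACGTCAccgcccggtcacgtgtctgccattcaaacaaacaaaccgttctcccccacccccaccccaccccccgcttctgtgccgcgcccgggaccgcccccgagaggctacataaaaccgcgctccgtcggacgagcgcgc
Arl4d: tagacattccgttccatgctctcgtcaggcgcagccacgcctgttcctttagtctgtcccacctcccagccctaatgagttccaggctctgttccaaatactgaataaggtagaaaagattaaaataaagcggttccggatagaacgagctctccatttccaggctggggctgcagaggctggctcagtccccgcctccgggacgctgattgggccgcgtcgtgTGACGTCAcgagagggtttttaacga
Jun: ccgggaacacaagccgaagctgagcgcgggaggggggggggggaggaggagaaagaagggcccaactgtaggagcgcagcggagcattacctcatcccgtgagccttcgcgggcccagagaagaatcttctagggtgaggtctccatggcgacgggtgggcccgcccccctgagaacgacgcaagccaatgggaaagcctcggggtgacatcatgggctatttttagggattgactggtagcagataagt

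The element TGACGTCA, which reads the same on both strands, was found in 4 of the 25 immediate early genes with a promoter entry (16%) and in 360 of 12345 tested genes with one (2.92%). Its shorter form TGACG, searched on both strands and contained in the full element, was found in 20 of 25 (80%) and in 3555 of 12345 (28.8%). Genes with several listed starts were counted once if any window held the motif. Jun had neither form in this window. A match is a description of the letters, not a site of binding. The interaction was 0.25 ± 0.33 (SE) for Btg2, an antiproliferative transcriptional cofactor, 0.61 ± 0.38 for Dusp1, a phosphatase of MAP kinases, and 0.13 ± 0.19 for Arl4d, a small GTPase. The fourth member with the full element, the transcription factor Maff, had −0.31 ± 0.32, the lowest of the list.

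No immediate early gene passed the adjusted threshold, and 2 had an unadjusted p under 0.05, Jun and Gadd45b, both positive, against 3.51% of all genes. Jun, a subunit of the AP-1 transcription factor, had 1810 to 2266 (median 1991) normalized counts in HT shock, 1709 to 1992 (median 1819) in HT control, 1803, 1924, 1991, 1813 and 1726 in WT shock and 1809 to 2134 (median 1921) in WT control. The HT and WT groups overlapped, with an interaction of 0.19 ± 0.08 (SE, limma adjusted p = 0.758). Gadd45b, a stress-induced regulator of DNA demethylation and MAP kinases, had 0.30 ± 0.14 (SE, limma adjusted p = 0.772).

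Large values in the list came with large standard errors. Arc, a regulator of AMPA receptor trafficking, had 2816 to 9847 (median 6964) normalized counts in HT shock, 2526 to 7984 (median 4838) in HT control, 5034, 5825, 4792, 3053 and 2248 in WT shock and 2325 to 9024 (median 5112) in WT control, an interaction of 0.78 ± 0.57 (SE). Fos had 726 to 1487 (median 1179) normalized counts in HT shock, 517 to 1539 (median 853) in HT control, 939.5, 1202, 729, 745 and 412 in WT shock and 409 to 1954 (median 811) in WT control, an interaction of 0.53 ± 0.52. Within each group the libraries differed up to several times over, and all groups overlapped. HT shock replicate 5 was the lowest HT shock library in both, and HT control replicates 5 and 6 were the lowest HT control libraries. Nr4a1, an orphan nuclear receptor, had 0.68 ± 0.40, and Homer1, a postsynaptic scaffold, had −0.12 ± 0.16, the other negative value beside Maff.

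Summed over the list, the levels of immediate early genes were 40371 to 61667 in HT shock, 38545 to 60204 in HT control, 33462 to 51595 in WT shock and 33667 to 64455 in WT control normalized counts. The list score, the mean over genes of the log2 deviation from each gene's mean, was −0.259 to 0.349 in HT shock, −0.295 to 0.359 in HT control, −0.041, 0.122, 0.01, −0.282 and −0.45 in WT shock and −0.535 to 0.494 in WT control. All 4 groups overlapped. The median response was 0.156 in HT and −0.0844 in WT, with 28 of 31 members positive in HT and 6 of 31 in WT. Left out in turn, libraries moved the median interaction over 0.171 without WT shock replicate 5 to 0.329 without HT shock replicate 5. The number at an unadjusted p under 0.05 ranged over 1 to 5, with 5 without HT shock replicate 5 or without WT control replicate 3. Of all 17118 genes, 699 and 557 were positive at that p in those fits, in that order, against 601 with all libraries.

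Genes of the slower activity programme, neurotrophins and secreted factors among them, had a median of 0.0291 over 21 members, 13 of them positive. Rgs2, a regulator of G protein signalling, had 0.17 ± 0.07 (SE), and Crem, a CREB-family transcription factor with repressor forms, had −0.24 ± 0.10, both with a limma adjusted p of 0.758. The median was 0.00835 without HT control replicate 6. Leaving out WT shock replicate 5 gave a median of −0.00766, and leaving out WT shock replicate 3 gave 0.0547.

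Among NMDA receptor subunits 5 of 7 had a positive interaction and the median was 0.0327, and 0.012 without HT control replicate 6. Grin2c, the subunit of cerebellar granule cells and astrocytes, had −0.15 ± 0.07 (SE, limma adjusted p = 0.772) and was the one subunit of 7 at an unadjusted p under 0.05, against 2.92% of all genes with a negative value at that p, in a fit where its HT control replicate 6 stood highest at 4467. It was not under 0.05 without that library or 14 others left out in turn. Grin1, the obligatory subunit, had 0.03 ± 0.05, and Grin2a, the subunit that joins GluN2B in mature synapses, 0.05 ± 0.08. The 15 tested genes of 23 listed around Grin2b on chromosome 6 had a median of 0.0114, 8 positive and 7 negative, and of −0.0178 without HT control replicate 6, with Wbp11, a splicing factor, at 0.14 ± 0.05 and Emp1, a membrane protein of epithelia, at −0.62 ± 0.27.

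The medians of other synaptic lists were 0.0179 for AMPA and kainate receptors with their auxiliary subunits, 0.0176 for postsynaptic scaffolds and kinases, 0.00484 for vesicle release, −0.00845 for GABA-A receptors, −0.0283 for synaptic adhesion, −0.053 for GABA synthesis, transport and breakdown and −0.0647 for metabotropic glutamate receptors. Without HT control replicate 6 they were, in the same order, 0.0108, 0.00171, −0.0185, −0.05, −0.0893, −0.0968 and −0.125. With each library corrected for transcript length and GC content they were 0.0575, 0.0102, 0.0161, 0.0161, 0.00755, −0.0459 and −0.0317. The sign of the vesicle release, GABA-A receptor and synaptic adhesion medians thus depended on the setting. Among their members Nrgn, the calmodulin-binding neurogranin of forebrain dendrites, had 28345 to 34030 (median 30469) normalized counts in HT shock, 23289 to 31655 (median 25194) in HT control, 23075, 22409, 24018, 25355 and 22237 in WT shock and 22671 to 25759 (median 24921) in WT control. All HT shock libraries lay above HT control except its replicate 6, and the interaction was 0.30 ± 0.09 (SE, limma adjusted p = 0.565, 0.0919 without that library).

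Smaller positive values came from the vesicle proteins Syn1 (0.15 ± 0.05, SE) and Vamp2 (0.12 ± 0.04), the scaffold Dlgap4 (0.15 ± 0.05), the GABA-A subunits Gabra3 (0.14 ± 0.05) and Gabra5 (0.17 ± 0.06) and the AMPA receptor auxiliary subunits Cacng7 (0.11 ± 0.04) and Cacng3 (0.13 ± 0.07). Negative ones came from the group III metabotropic receptor Grm4 (−0.23 ± 0.07), the GABA transaminase Abat (−0.14 ± 0.06) and the cerebellar synaptic organizer Cbln1 (−0.19 ± 0.10). The limma adjusted p of these 10 genes lay between 0.552 and 0.777. In the synaptic adhesion list, which holds Cbln1, 3 of 13 genes were positive and 10 negative. Its 1 member at an unadjusted p under 0.05 was positive, against 3.51% of all genes: Lrrtm1, at 0.12 ± 0.06 (SE, limma adjusted p = 0.772). In Gabra3 every WT shock library (3572, 3559, 3581, 3403 and 3460) lay below every WT control library (3582 to 3834, median 3637), with HT shock (3530 to 3884, median 3607) and HT control (3276 to 3598, median 3482) overlapping.

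Ion channel lists had medians of −0.0199 over 71 potassium (30 positive, 41 negative), −0.0134 over 12 sodium (6 and 6) and 0.0229 over 16 calcium channel genes (10 and 6). The P/Q-type pore subunit Cacna1a had 0.14 ± 0.05 (SE), the inward rectifier Kcnj4 0.20 ± 0.08, the channel-interacting protein Kcnip3 0.14 ± 0.06 and the striatal sodium channel subunit Scn4b −0.25 ± 0.13. Without HT control replicate 6 the medians were −0.0476, −0.0855 and 0.00212. At an unadjusted p under 0.05, 16 of the 71 potassium channel genes were then negative and 5 positive, against 7.94% and 6.5% of all genes. With all libraries 1 was negative and 4 were positive, against 2.92% and 3.51% of all genes.

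Markers of neurons from particular brain regions had medians farther from 0. In bulk tissue, fewer cells of a type and less RNA per cell cannot be told apart, and with no region named in the labels, the part of dissection in these values was not tested. Of the 12 midbrain dopamine neuron genes 10 were tested, and 9 of them had a negative interaction with a median of −0.402. At an unadjusted p under 0.05 there were 7 of 10, all negative, against 2.92% of all genes, and none passed the adjusted threshold. Besides Slc6a3 and Chrna6 these were Aldh1a1, a retinaldehyde dehydrogenase (−0.21 ± 0.06, SE), En1, a midbrain transcription factor (−0.48 ± 0.17), Slc18a2, the vesicular monoamine transporter (−0.49 ± 0.22), Ddc, the decarboxylase that forms dopamine (−0.33 ± 0.15), and Ret, a growth factor receptor (−0.32 ± 0.15). There were 4 without HT control replicate 4, HT shock replicate 1, WT control replicate 1 or WT shock replicate 5. In these fits 390 to 459 of all 17118 genes were negative at that p, against 500 with all libraries.

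En1 had 47 to 69.8 (median 58.7) normalized counts in HT shock, 58.2 to 91.7 (median 73.1) in HT control, 82.2, 75.7, 70.1, 76.8 and 72.2 in WT shock and 60.4 to 80.5 (median 64.4) in WT control. HT shock lay mostly below HT control, and WT shock mostly above WT control. Th, the enzyme that starts dopamine synthesis, had 569 to 719 (median 625.4) normalized counts in HT shock, 537 to 769.6 (median 624) in HT control, 703, 623, 710.5, 752 and 785 in WT shock and 450 to 724 (median 641) in WT control, and all groups overlapped, with an interaction of −0.22 ± 0.13 (SE). Over the list the response was −0.234 in HT and 0.147 in WT, the summed levels were 5701 to 6763 in HT shock, 5981 to 7847 in HT control, 7051 to 7890 in WT shock and 6510 to 7527 in WT control, and the score was −0.567 to −0.042 in HT shock, −0.202 to 0.354 in HT control, 0.202, 0.037, 0.204, 0.246 and 0.417 in WT shock and −0.128 to 0.186 in WT control. Every HT shock score was below every WT shock score, while each shock group overlapped its control. The separation of the shock groups compares genotypes after shock, not the responses, and other lists had it too. HT shock also lay below WT shock in the striatal list (highest −0.038, lowest 0.083) and in sodium channels (−0.096 and 0.045). The same held for GABA-A receptors (−0.025 and −0.021) and for GABA synthesis, transport and breakdown (0.004 and 0.034). It held too for calcium channels (−0.018 and −0.013) and clustered protocadherins (−0.054 and −0.037). HT shock lay above WT shock in interneuron genes (lowest 0.034 in HT shock, highest −0.045 in WT shock). Mitochondrial ribosomal proteins had that order as well (lowest −0.005 in HT shock, highest −0.017 in WT shock).

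Genes of striatal projection neurons had a negative interaction in 16 of 19 and a median of −0.176. Adora2a, the adenosine receptor of indirect pathway neurons, had 429.7 to 891 (median 692) normalized counts in HT shock, 850.5 to 1090 (median 932) in HT control, 1064, 1160, 1018, 1082 and 1102 in WT shock and 1052 to 1174 (median 1132) in WT control. HT shock reached down to 429.7 and overlapped the lower part of HT control, and the WT groups overlapped, with an interaction of −0.44 ± 0.17 (SE, limma adjusted p = 0.758). Adcy5, the main striatal adenylyl cyclase, had −0.18 ± 0.08, and Drd2, the D2 dopamine receptor, −0.30 ± 0.14. Striatal scores were −0.654 to −0.038 in HT shock, −0.233 to 0.174 in HT control, 0.121, 0.134, 0.097, 0.083 and 0.145 in WT shock and 0.104 to 0.304 in WT control. HT shock spanned the widest range of the 4 groups and replicate 1 was its lowest. At an unadjusted p under 0.05 there were 3 of 19, against 2.92% of all genes. There was 1 without HT shock replicate 1, HT shock replicate 4 or WT control replicate 4, and 5 without WT control replicate 1. The number was 7 when HT control replicate 6 (where 7.94% of all genes were negative at that p) or else HT shock replicate 3 was left out. It was 8 without HT shock replicate 5. Apart from the fit without HT control replicate 6, these fits had 390 to 588 of all 17118 genes negative at that p, against 500 with all libraries.

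Cortical glutamatergic neuron genes went the other way, 13 of 15 positive with a median of 0.155 and 6 of 15 at an unadjusted p under 0.05, against 3.51% of all genes. They were the transcription factors Bcl11a (0.25 ± 0.07, SE), Neurod6 (0.23 ± 0.07), Rorb (0.18 ± 0.08), Neurod2 (0.15 ± 0.07) and Fezf2 (0.20 ± 0.09) and the cofactor Lmo4 (0.19 ± 0.06). Bcl11a had 2667 to 3193 (median 2857) normalized counts in HT shock, 2408 to 2794 (median 2524) in HT control, 2513, 2514, 2522, 2542 and 2289 in WT shock and 2473 to 2761 (median 2568) in WT control. HT shock overlapped only the 2 highest HT control libraries, replicates 5 and 6. Without WT shock replicate 5, the lowest library of the list, the median was 0.102. Scores were −0.048 to 0.16 in HT shock, −0.038 to 0.032 in HT control, −0.042, 0.006, −0.043, −0.083 and −0.187 in WT shock and −0.068 to 0.003 in WT control.

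Interneuron genes had a positive interaction in 10 of 15 and a negative one in 5 of 15. Their median was 0.0355, and 0.0678 without HT control replicate 6. At an unadjusted p under 0.05 there were 5 of 15, against 3.51% of all genes, all positive and all genes of neuropeptides. Cort, cortistatin, had 103 to 194 (median 149.7) normalized counts in HT shock, 89.2 to 123 (median 112) in HT control, 77.7, 69.9, 76.5, 81.7 and 80.6 in WT shock and 76 to 110 (median 95.3) in WT control. Every WT shock library lay below 5 of the 6 WT control libraries, and HT shock overlapped HT control, with 0.66 ± 0.19 (SE, limma adjusted p = 0.552). Sst, somatostatin, had 4361 to 5344 (median 5100) normalized counts in HT shock, 3652 to 5259 (median 4042) in HT control, 3626, 3691, 3820, 3728 and 3729 in WT shock and 3354 to 4097 (median 3925) in WT control. HT control replicate 6, at 5259, was within HT shock, and the other HT control libraries were below it. Its interaction was 0.29 ± 0.10 (SE, limma adjusted p = 0.689, 0.0919 without HT control replicate 6). Vip had 0.28 ± 0.10, the cholecystokinin precursor Cck 0.22 ± 0.09 and Npy 0.24 ± 0.11. The number of positive genes at an unadjusted p under 0.05 stayed between 4 and 5 with any single library left out. Over all 17118 genes that number lay between 477 without HT shock replicate 2 and 1112 without HT control replicate 6. The median of the list lay between 0.00943 without HT shock replicate 2 and 0.0873 without WT shock replicate 5.

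Cerebellar granule and Purkinje cell genes were negative in 11 of 14, with a median of −0.179 and 5 of 14 at an unadjusted p under 0.05, against 2.92% of all genes. Besides Fat2 they included Zic2, a zinc finger factor (−0.19 ± 0.07, SE), the secreted cerebellin Cbln3 (−0.22 ± 0.09) and the GABA-A subunit Gabra6 (−0.23 ± 0.11). The number was 3 without HT shock replicate 3 or WT shock replicate 2, where 408 and 508 of all 17118 genes were negative at that p. Thalamic genes had a median of −0.0794, hindbrain and spinal genes −0.126, hippocampal genes 0.0504 and hypothalamic neuropeptides −0.0687. Leaving out 1 library moved them by over 1.5 times, to −0.145 for thalamic genes without HT control replicate 6, to as low as −0.246 for hindbrain genes without HT control replicate 5, to −0.00537 for hippocampal genes without WT control replicate 2 and to −0.0328 for hypothalamic genes without HT shock replicate 1. Without HT control replicate 6 the hippocampal median was 0.0255 and the hypothalamic one −0.0367. Slc6a4, the serotonin transporter of raphe neurons, had −0.42 ± 0.18, and 12 serotonin receptors had a median of 0.0048, and of −0.016 without HT control replicate 6.

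**Figure D3:**
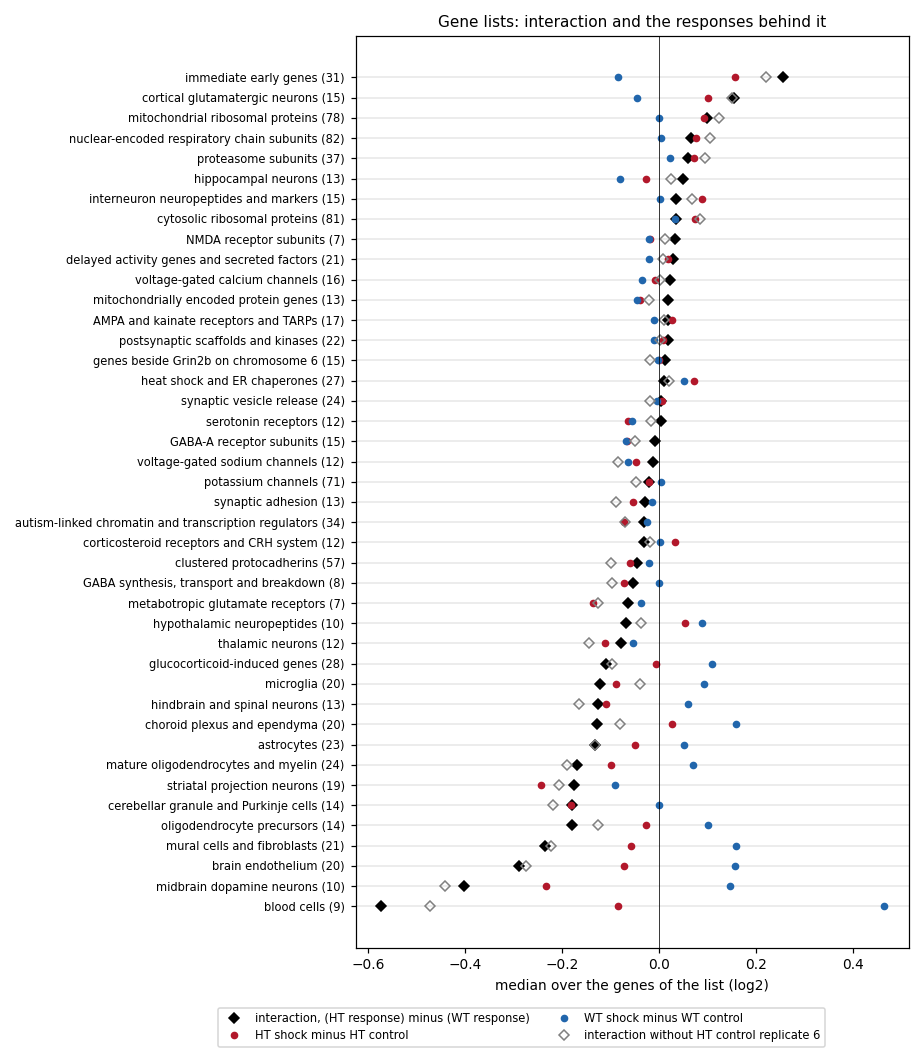
Median over each gene list of the interaction (filled diamonds), of the HT and WT shock responses (circles) and of the interaction without HT control replicate 6 (open diamonds), on the log2 scale, with the number of genes tested in brackets. Immediate early genes have the highest median (0.255) and blood cell genes the lowest (−0.574), and the synaptic and ion channel lists lie between −0.0647 and 0.0327.

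Glial lists had negative medians in all 4 cases, −0.17 for mature oligodendrocytes and myelin (23 of 24 genes negative), −0.18 for their precursors (13 of 14), −0.131 for astrocytes (20 of 23) and −0.121 for microglia (16 of 20). In oligodendrocytes the median response was −0.0988 in HT and 0.0697 in WT. Mag, a myelin adhesion protein, had 6272 to 7870 (median 7039) normalized counts in HT shock, 7063 to 8337 (median 7630) in HT control, 7364, 7858, 7339, 9678 and 9119 in WT shock and 6903 to 7939 (median 7599) in WT control. WT shock replicates 4 and 5 were the highest of all libraries, and the groups overlapped in both genotypes. The interaction of Mag was −0.26 ± 0.09 (SE, limma adjusted p = 0.719) and that of Myrf, the transcription factor of myelination, −0.24 ± 0.08.

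At an unadjusted p under 0.05 there were 5 of 24 oligodendrocyte genes and 5 of 23 astrocyte genes, all negative, against 2.92% of all genes. The oligodendrocyte number was 8 without HT shock replicate 5, HT shock replicate 6, WT control replicate 6, WT shock replicate 1 or WT shock replicate 3. The astrocyte number was 9 when HT control replicate 6 (where the share of all genes was 7.94%) or else HT shock replicate 6 was left out. It was 8 without WT shock replicate 1. Apart from the fit without HT control replicate 6, these fits had 489 to 667 of all 17118 genes negative at that p, against 500 with all libraries. The astrocyte genes included Mlc1 (−0.17 ± 0.06, SE), Ntsr2 (−0.17 ± 0.06), Acsbg1 (−0.13 ± 0.05) and the glutamate transporter Slc1a2 (−0.18 ± 0.08). Single libraries moved the microglial median, to −0.039 when HT control replicate 6 was left out, to −0.0148 when WT shock replicate 5 was left out and to −0.253 when WT shock replicate 2 was. Aif1, the calcium-binding protein IBA1, was the 1 of 20 microglial genes at an unadjusted p under 0.05 (−0.56 ± 0.26), there were 0 without HT control replicate 6, and no precursor gene was under 0.05 with all libraries.

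Brain endothelium had 19 of 20 genes negative and a median of −0.288, from responses of −0.0718 in HT and 0.157 in WT. All 20 genes had a positive response in WT, and 5 of 20 in HT. Tie1, a vascular receptor kinase, had 208 to 301 (median 275) normalized counts in HT shock, 263 to 326 (median 316) in HT control, 293, 291, 277, 333 and 274 in WT shock and 216 to 296 (median 272) in WT control. HT shock was lowest in replicates 1 and 2, and all groups overlapped. Its interaction was −0.37 ± 0.14 (SE, limma adjusted p = 0.752). Esam, an endothelial junction protein, had −0.33 ± 0.13, Tek, the angiopoietin receptor, −0.37 ± 0.15, Ramp2, a subunit of the adrenomedullin receptor, −0.29 ± 0.12, Ly6c1 −0.33 ± 0.14 and Abcb1a, the efflux pump of the blood-brain barrier, −0.31 ± 0.13. In all, 9 of 20 had an unadjusted p under 0.05, all negative, against 2.92% of all genes. With 1 library left out the number ranged from 6 (without HT shock replicate 1) to 11 (without HT shock replicate 6). In those fits 390 and 667 of all 17118 genes were negative at that p, against 500 with all libraries. It was 7 without HT control replicate 6, against 7.94% of all genes. The median lay over −0.317 without HT shock replicate 6 to −0.233 without HT control replicate 4.

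Endothelial scores were −0.211 to 0.171 in HT shock, −0.028 to 0.118 in HT control, 0.059, −0.01, 0.103, 0.211 and 0.019 in WT shock and −0.183 to 0.043 in WT control. WT shock overlapped WT control only at the highest WT control library, and the HT control range lay inside that of HT shock. Summed levels of the 20 genes were 21803 to 25288 in HT shock, 22928 to 25045 in HT control, 23038 to 25479 in WT shock and 21585 to 23182 in WT control normalized counts. Mural cell and fibroblast genes had 21 of 21 negative and a median of −0.235, which was −0.152 without HT shock replicate 1. They included the growth factor Igf2 (−0.35 ± 0.15, SE) and the smooth muscle receptor Notch3 (−0.30 ± 0.15). Choroid plexus and ependymal genes had a median of −0.128, which was −0.0813 without HT control replicate 6, −0.301 when WT shock replicate 2 was left out and −0.0773 when WT shock replicate 5 was, with Prlr, the prolactin receptor, at −0.63 ± 0.20 and Kcne2, a potassium channel subunit of choroid epithelium, at −0.88 ± 0.36.

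Blood cell genes had the lowest median of all lists, −0.574, with 9 of 9 tested genes negative, but no member at an unadjusted p under 0.05. Summed levels of these 9 genes were 6366 to 12539 in HT shock, 5806 to 13488 in HT control, 7964 to 14437 in WT shock and 6487 to 12278 in WT control. The adult haemoglobin chain Hbb-bs had 2483 to 4787 (median 3911) normalized counts in HT shock, 2283 to 5308 (median 4150) in HT control, 4265, 3765, 5336, 5637 and 3180 in WT shock and 2625 to 4813 (median 3679) in WT control, with all groups overlapping and an interaction of −0.30 ± 0.29 (SE). WT shock replicate 3 had a blood score of 1.61, above the other WT shock libraries, and without it the median was −0.322. Endothelial genes had a median of −0.24 and mural genes of −0.222 without that library. The part of retained blood in the vascular values was not tested.

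**Figure D4:**
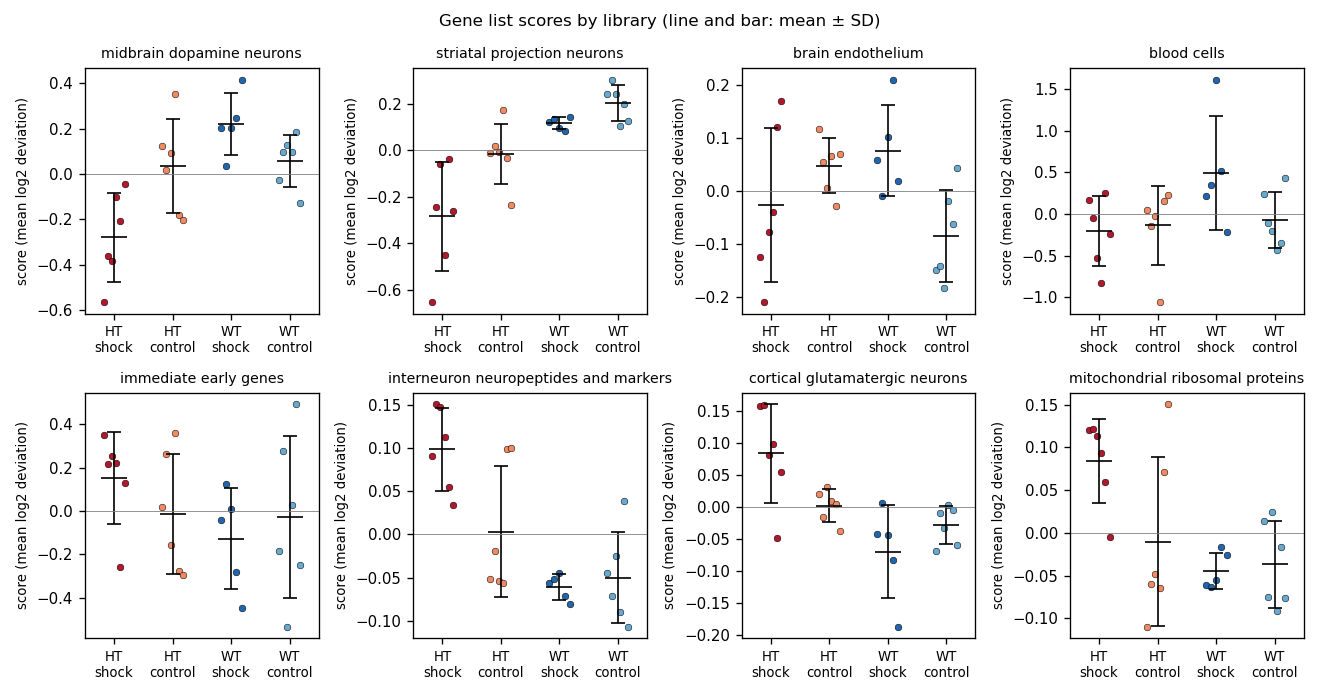
Score of 8 gene lists in each library (mean over genes of the log2 deviation from the gene's mean), in HT shock, HT control, WT shock and WT control from left to right, with mean and SD (n = 6, 6, 5 and 6). Mean dopamine and striatal scores are lowest in HT shock, endothelial scores are higher in WT shock than in most WT control libraries, and immediate early gene scores overlap in all groups.

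Glucocorticoid-induced genes, which mark hormonal stress, had a median of −0.11, 20 of 28 negative, from responses of −0.00618 in HT and 0.11 in WT. Without WT shock replicate 3 the median was −0.016. Mfsd2a, a lipid transporter of brain endothelium, was the 1 of 28 members at an unadjusted p under 0.05, against 2.92% of all genes (−0.33 ± 0.15, SE), and the classical targets Fkbp5 (−0.06 ± 0.13), Sgk1 (−0.17 ± 0.37) and Tsc22d3 (−0.17 ± 0.10) were not. The 12 genes of the stress hormone system itself had a median of −0.0318, and of −0.0178 without HT control replicate 6. Among them Crhbp, which binds corticotropin-releasing hormone, had 0.26 ± 0.12, the receptor Crhr2 0.53 ± 0.27, the glucocorticoid receptor Nr3c1 −0.06 ± 0.12 and Crh −0.04 ± 0.19. Heat shock and endoplasmic reticulum chaperones had a median of 0.0104, and of 0.0209 without HT control replicate 6, with the stress transcription factor Atf4 at 0.14 ± 0.05 and Hsp90aa1 at 0.17 ± 0.07.

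Genes for mitochondria and protein turnover shared small positive values. The median was 0.0658 over 82 nuclear-encoded respiratory chain subunits (68 positive), 0.098 over 78 mitochondrial ribosomal proteins (72 positive), 0.0343 over 81 cytosolic ribosomal proteins (63 positive) and 0.0592 over 37 proteasome subunits (31 positive). Without HT control replicate 6 the medians, in that order, were 0.105, 0.124, 0.085 and 0.0942, and without HT control replicate 1 the cytosolic ribosomal median was 0.00727. At an unadjusted p under 0.05 there were 8, 8, 2 and 3 positive genes with all libraries, against 3.51% of all genes, and 20, 23, 18 and 10 without HT control replicate 6, when 6.5% of all genes were positive at that p. Scores of these lists were highest in that library, at 0.186 for the respiratory chain and 0.151 for mitochondrial ribosomal proteins. With each library corrected for transcript length and GC content the medians, in the same order, were 0.0516, 0.085, 0.0206 and 0.0542.

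Among single members, Rpl35, a protein of the large ribosomal subunit, had 2726 to 3082 (median 2772) normalized counts in HT shock, 2188 to 2724 (median 2326) in HT control, 2435, 2141, 2484, 2343 and 2342 in WT shock and 2126 to 2870 (median 2397) in WT control. Every HT shock library lay above every HT control library, although only just above replicate 6, and the WT groups overlapped, with 0.30 ± 0.09 (SE, limma adjusted p = 0.552). Rps6, of the small subunit, had −0.21 ± 0.07, the complex I subunit Ndufc2 0.21 ± 0.07, the ATP synthase subunit Atp5f1 0.15 ± 0.05 and the mitochondrial ribosomal proteins Mrpl47 0.41 ± 0.14 and Mrpl23 0.66 ± 0.24. Ribosomal protein genes have many processed pseudogenes that share reads with them, and their values are uncertain.

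Of the 13 protein genes encoded in mitochondrial DNA the median was 0.0192. It was −0.02 without HT control replicate 6 and 0.0873 without HT control replicate 4. There were 2 of 13 genes at an unadjusted p under 0.05, both positive and adjacent, against 3.51% of all genes. mt-Atp6, an ATP synthase subunit, had 28856 to 38311 (median 33074) normalized counts in HT shock, 21867 to 41510 (median 25974) in HT control, 20777, 31190, 30997, 20797 and 27297 in WT shock and 30012 to 41930 (median 33838) in WT control. WT shock lay mostly below WT control and HT shock above HT control except its replicate 1, with 0.73 ± 0.20 (SE, limma adjusted p = 0.552). mt-Atp8, which overlaps it, had WT shock libraries (20215, 20647, 20662, 19810 and 20277) all below WT control (21345 to 25268, median 22089), overlapping HT groups, and 0.17 ± 0.07. Reads of the overlap can be assigned to either.

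Chromatin and transcription regulators linked to autism, a group of interest because GRIN2B itself is such a gene in humans, had a median of −0.0312 over 34 genes, 22 negative. The median ran from −0.0694 without HT control replicate 6 to −0.000324 without HT control replicate 1. Chd6 and Bcl11a, given above, and Setd2, a histone methyltransferase (0.20 ± 0.06, SE), had an unadjusted p under 0.05, 3 of 34 against 6.43% of all genes. Clustered protocadherins had a median of −0.0453 over 57 genes, which was −0.0999 without HT control replicate 6 and −0.00101 after correction for length and GC content.

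Leaving out each library in turn gave between 866 genes (without HT shock replicate 2) and 2472 genes (without HT control replicate 6) at an unadjusted p under 0.05. Apart from HT control replicate 6 the highest number was 1397, without HT shock replicate 6, where the smallest adjusted p was 0.105.

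**Figure D5:**
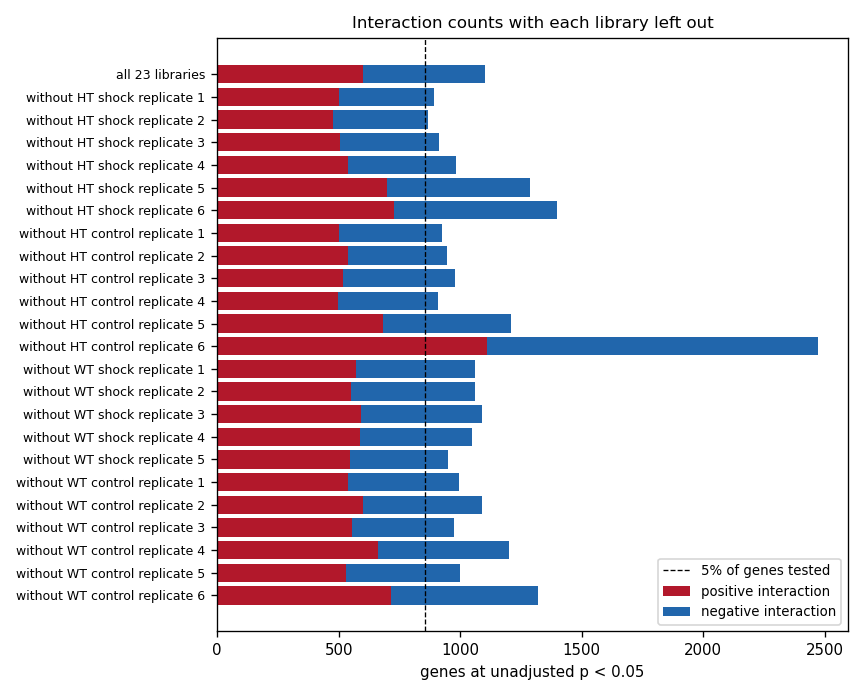
Number of genes at an unadjusted p under 0.05 for the interaction with all 23 libraries and with each library left out, split into positive and negative interactions; the dashed line is 5% of the 17118 genes tested. The number without HT control replicate 6 (2472) exceeds all others, and several lie at or near the line.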

How the data were processed

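Brain RNA of 23 libraries was compared, 6 HT shock, 6 HT control, 5 WT shock and 6 WT control, grouped by the labels' genotype and treatment. The deposited values are a signal, normalized counts with decimals. Libraries were made with a stranded mRNA kit, per the labels' protocols, and per the submitters' processing notes the tools were Salmon 1.1.0, R 3.6.2 and DESeq2 1.26.0 with build GRCm38, in no stated order or role. The deposited signal did not resolve into whole reads, since 23.2% to 56.3% of low values lay within 0.1 of a whole multiple, so no count test was run and depth is unknown. Of 24 library columns in the table, 1 matched no labelled sample and was not used.

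Values were analysed as log2(value + 1), for 17118 of 18578 genes with a mean of at least 10, which understates changes of low genes. limma 3.58.1 in R 4.3.3 (one fit over the 4 groups, eBayes with trend and robust, Benjamini-Hochberg adjustment over all genes, two-sided) gave the interaction, its SE and 95% intervals. The script was tested on simulated data. Plots used Python 3.11.15 and matplotlib 3.10.9.

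The members and gene lists were chosen with earlier results of these data known. Named genes were Grin2b, 2 members of each of 42 lists and, in each direction, the 8 smallest p and the 4 largest sizes. Sizes were ranked at an unadjusted p under 0.01. The p and size rules required a mean of at least 20 and left out predicted, clone, Rik and pseudogene names. Further list members, Arc, Fos, Nr4a1, Th, En1, Drd2, Vip, Hbb-bs, Ramp2 and Lmo4 among them, were chosen after their values were seen. A few genes chosen by these rules are not reported here. Alternatives changed the pseudocount, filter, centring, trend, library weights, a residual component, a replicate block, length and GC correction, or left out 1 library. Title numbers and library-name numbers of WT shock differ, and title numbers name the replicates here. Deviations of same-numbered libraries correlated above 0.1 in 5 of 33 pairs by title number, not in every pair, and libraries were not treated as paired.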

Additional observations from a re-analysis of the deposited data

Results flagged for a closer look

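Groups of 5 or 6 libraries were tested over the named genes and some of the list scores, 460 in all. Scores of the other lists were not tested in this way. In 30 of the 460 groups the highest or lowest library stood farther from its neighbour than Dixon's 95% critical value allows. Chance flags about 1 in 20 groups, so these are given as values.

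HT control replicate 6 stood apart in 5 named genes. Its level was 756.5 for Cstf3 (806.4 to 828 in the other HT control libraries), 8009 for Bc1 (3056 to 4629), 4467 for Grin2c (3694 to 3866), 22450 for Syn1 (20587 to 20728) and 2622 for Aldh1a1 (2949 to 3041). Other HT control libraries stood apart in Pcdhb7 (replicate 5, 178.1 against 214.7 to 236.3), Slc6a4 (replicate 1, 104.3 against 137.5 to 155) and mt-Atp6 (replicate 1, 41510 against 21867 to 28292). The blood cell score of HT control replicate 4 was −1.06 against −0.149 to 0.225, and the glucocorticoid score of replicate 2 was 0.136 against −0.249 to −0.116.

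In HT shock, replicate 2 was highest for Rpl35 (3082 against 2726 to 2807) and Rps6 (5823 against 5262 to 5425). Replicate 1 had 1292 for Rgs2 (1402 to 1422 in the others) and 180.2 for Mrpl23 (107.2 to 124.3), replicate 6 had 380.2 for Esam (263.6 to 303.0), and replicate 5 had 211.4 for Alas2, the first enzyme of haem synthesis in red cells (76.8 to 119.2). The immediate early gene score of replicate 5 was −0.259 against 0.128 to 0.349, and the respiratory chain score of replicate 6 was −0.028 against 0.065 to 0.111.

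In WT shock, replicate 2 was highest for Creb3 (1073 against 846.2 to 895.9) and Lefty2 (31.5 against 10.6 to 13.1). Replicate 5 was lowest for Cacng3 (2298 against 2592 to 2694), Vamp2 (30048 against 31922 to 32326) and Bcl11a (2289 against 2513 to 2542). Replicate 3 had 516.4 for Obsl1 (637.5 to 675.7), and replicate 1 had 237.9 for Oxt, the oxytocin precursor (187.1 to 201.1).

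In WT control, single libraries were highest for Chrna6 (replicate 2, 87.8 against 61.9 to 69.4), Cacng3 (replicate 4, 2828 against 2383 to 2519), Gadd45b (replicate 5, 408.1 against 284.5 to 328.8), Esam (replicate 6, 350.9 against 255.1 to 288.1) and Cacna1a (replicate 6, 9172 against 8543 to 8714).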

How the results depend on the processing

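No gene passed an adjusted p of 0.05 (limma) with all libraries or under the alternatives tried, except 2 with library weights and 1 without HT control replicate 6. Genes at an unadjusted p under 0.05 numbered 1101, against 2739 with library weights, and leaving out 1 library gave 866 to 2472, with 0 to 1 past the adjusted threshold. The highest, 2472, was without HT control replicate 6. The split was 1308 positive and 1431 negative with weights and 1112 and 1360 without that library, against 601 and 500. Correction for length and GC content, chosen after seeing the data, gave 732 and 492, a smallest adjusted p of 0.0925 and none past 0.05. The cause was not tested.

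With title numbers as a replicate block the number was 1060 and with library-name numbers 1045, and 0 genes passed under either. Over 33 pairs of same-numbered libraries, deviations correlated between −0.154 and 0.194 by title number, with 5 pairs over 0.1, and between −0.114 and 0.194 by library-name number, with 3 over 0.1.

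Of 3467 values of named genes under alternatives, 3464 kept direction and side of the threshold, and Chd6 and Soga1 accounted for the 3 that passed. Apart from Grin2b, these genes were chosen by small p or large size, and none passed with all libraries. Keeping direction and side was largely given by that choice and is no test of stability. Of 1428 list medians, 5 moved by more than the spread between libraries. They were AMPA and kainate receptors to 0.0575 after length and GC correction, metabotropic receptors to −0.142 with weights, synaptic adhesion to −0.0893 without HT control replicate 6, and sodium channels to −0.0746 with weights and −0.0855 without that library. Depth is unknown, and the median unadjusted 95% interval of 0.227 to either side limits what could be detected. The adjusted threshold limits it further.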
